A study of Mus musculus with 2 samples.

Results

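A set of 9 genes of the B lymphocyte lineage was followed through every cell cluster of a droplet-based single-cell RNA (scRNA) sequencing study of the injured mouse kidney. They were Ighm and Ighd, which encode the constant regions of the IgM and IgD heavy chains, Igkc, the constant region of the kappa light chain, Jchain, the joining chain of polymeric antibodies, Cd79a and Cd79b, the signalling subunits of the B cell receptor, Ms4a1, which encodes CD20, Fcer2a, which encodes the low-affinity IgE receptor CD23, and Cr2, which encodes complement receptors CD21 and CD35. The genes were chosen by name, and all 9 were present among the 20299 features and were counted in both libraries. Their unique molecular identifiers (UMIs) were added up by library within each of the authors' 16 clusters, and the sums in the B cluster were set against those in all other clusters.

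B lymphocytes carry membrane immunoglobulin as their antigen receptor, and CD79A and CD79B relay its signal into the cell. Immature B cells display IgM, mature naive B cells display IgM and IgD from the same heavy chain locus by alternative processing of a long transcript, and follicular and marginal zone B cells differ in CD23 and CD21. A cell that becomes a plasma cell loses CD20, switches its heavy chain constant region in many cases, and fills with transcripts of immunoglobulin and of the joining chain.

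The study compared C57BL/6 mice of 2 genotypes, WT and Vsir-/-, at 8 weeks of age, to learn how loss of VISTA, an inhibitory immune checkpoint receptor, changes immune cells after glomerular injury. Vsir-/- denotes loss of both copies of the gene throughout the animal, and no other allele was named in either group. Both groups had nephrotoxic nephritis (NTN). Sheep immunoglobulin G (200 μg) in Freund's complete adjuvant was given first, and sheep nephrotoxic serum 4 days later. All samples therefore came from mice immunized with a foreign immunoglobulin, and no uninjured library was analysed here. The labels give a serum volume of 2 μl per g of body weight, and the study's methods give a larger one. The labels describe the WT library as sorted CD45+ cells and the Vsir-/- library as every kind of kidney cell, whereas the methods describe a CD45+ sort without naming an exception. The number of mice per library is not given in the sources used here.

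With 1 library per genotype there was no biological replicate, so no test between genotypes was made, and every interval is a 95% interval for counting error only. The WT library held 5470 cells and 32799550 UMIs, and the Vsir-/- library held 1844 cells and 18601189 UMIs, with 5 cell barcodes in common. Vsir, the deleted gene, had 4278 UMIs in the WT library and 8 in the Vsir-/- library. Kidney tubule transcripts, sex-linked transcripts, and the list of counted features also differed between the libraries. Xist had 0 UMIs in WT cells and was found in 78.0% of Vsir-/- cells, while the Y-linked gene Ddx3y was found in 23.9% of WT cells and had 0 UMIs in Vsir-/- cells. The methods describe male mice, so these counts go against the description of the Vsir-/- library and cannot be told apart from genotype. Of all features, 13898 had UMIs in both libraries, 1053 in WT cells only and 4827 in Vsir-/- cells only. The Igha, Ighe, Ighg3 and Iglc4 constant genes and all 54 variable segments were listed at 0 in the Vsir-/- library, and Ighg2c was listed at 0 in the WT library, so no ratio was formed for them.

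Promoter sequences from RefSeq on the GRCm38.p6 build were found for 4 of the 9 genes, Jchain, Cd79a, Fcer2a and Cr2. These 4 sequences are shown because they were the ones found. Ighm and Cd79b, whose levels outside the B cluster are described below, are not among them. Each is the 250 bases that end at the base before the annotated start, read 5′ to 3′ on the gene's own strand, and capitals mark an E-box (CAGNTG) or an ETS core (GGAAGT) on either strand. The regions are chr5:88527898-88528147 on the minus strand for Jchain, chr7:24897247-24897496 on the plus strand for Cd79a, chr8:3694175-3694424 on the minus strand for Fcer2a (the most upstream of its 3 starts) and chr1:195176720-195176969 on the minus strand for Cr2.
Jchain: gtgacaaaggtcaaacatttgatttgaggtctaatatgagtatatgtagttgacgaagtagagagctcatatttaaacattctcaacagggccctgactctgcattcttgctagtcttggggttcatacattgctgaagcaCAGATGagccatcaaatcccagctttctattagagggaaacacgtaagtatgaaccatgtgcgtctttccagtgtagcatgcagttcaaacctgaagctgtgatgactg
Cd79a: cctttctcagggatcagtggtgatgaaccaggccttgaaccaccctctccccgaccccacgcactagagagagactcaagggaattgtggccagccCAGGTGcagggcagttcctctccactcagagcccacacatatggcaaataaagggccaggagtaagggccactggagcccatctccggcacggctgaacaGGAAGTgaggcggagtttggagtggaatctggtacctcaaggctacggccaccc
Fcer2a: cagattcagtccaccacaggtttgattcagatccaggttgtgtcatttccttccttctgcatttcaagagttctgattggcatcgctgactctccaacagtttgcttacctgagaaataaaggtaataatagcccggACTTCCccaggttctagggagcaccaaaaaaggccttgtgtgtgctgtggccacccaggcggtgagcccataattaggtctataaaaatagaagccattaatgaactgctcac
Cr2: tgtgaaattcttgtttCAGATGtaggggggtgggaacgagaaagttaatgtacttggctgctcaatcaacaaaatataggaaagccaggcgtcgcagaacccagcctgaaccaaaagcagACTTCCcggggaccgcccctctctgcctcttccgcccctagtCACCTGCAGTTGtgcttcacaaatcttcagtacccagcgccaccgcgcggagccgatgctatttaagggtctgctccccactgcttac
Jchain held an E-box that began 109 bases before the start. In Cd79a an E-box began at position -154 and an ETS core at -54. Fcer2a held an ETS core at -113, and Cr2 held an ETS core at -130 and E-boxes at -234, -88 and -82, the last 2 of which adjoin. The octamer ATGCAAAT was searched on both strands and matched in none of the 4 windows. Over 27025 genes with such a window, the E-box was present in 44.5%, the ETS core in 19.99% and the octamer in 1.61%. These matches describe the letters of the windows and are no evidence of binding.

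Levels are given as CPM, the UMIs of a gene per 1000000 UMIs of the same cells. Reads of this 3′ chemistry count transcript ends and were not divided by gene length. In the WT library 8 of the 9 genes were highest in the B cluster, and Jchain was the exception. In the Vsir-/- library all 9 were highest there. Among all genes tested, 6.32% in the WT library and 3.4% in the Vsir-/- library were highest in the B cluster. The clusters were built on the transcripts themselves, so these counts describe the clusters and are no test.

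**Figure D1:**
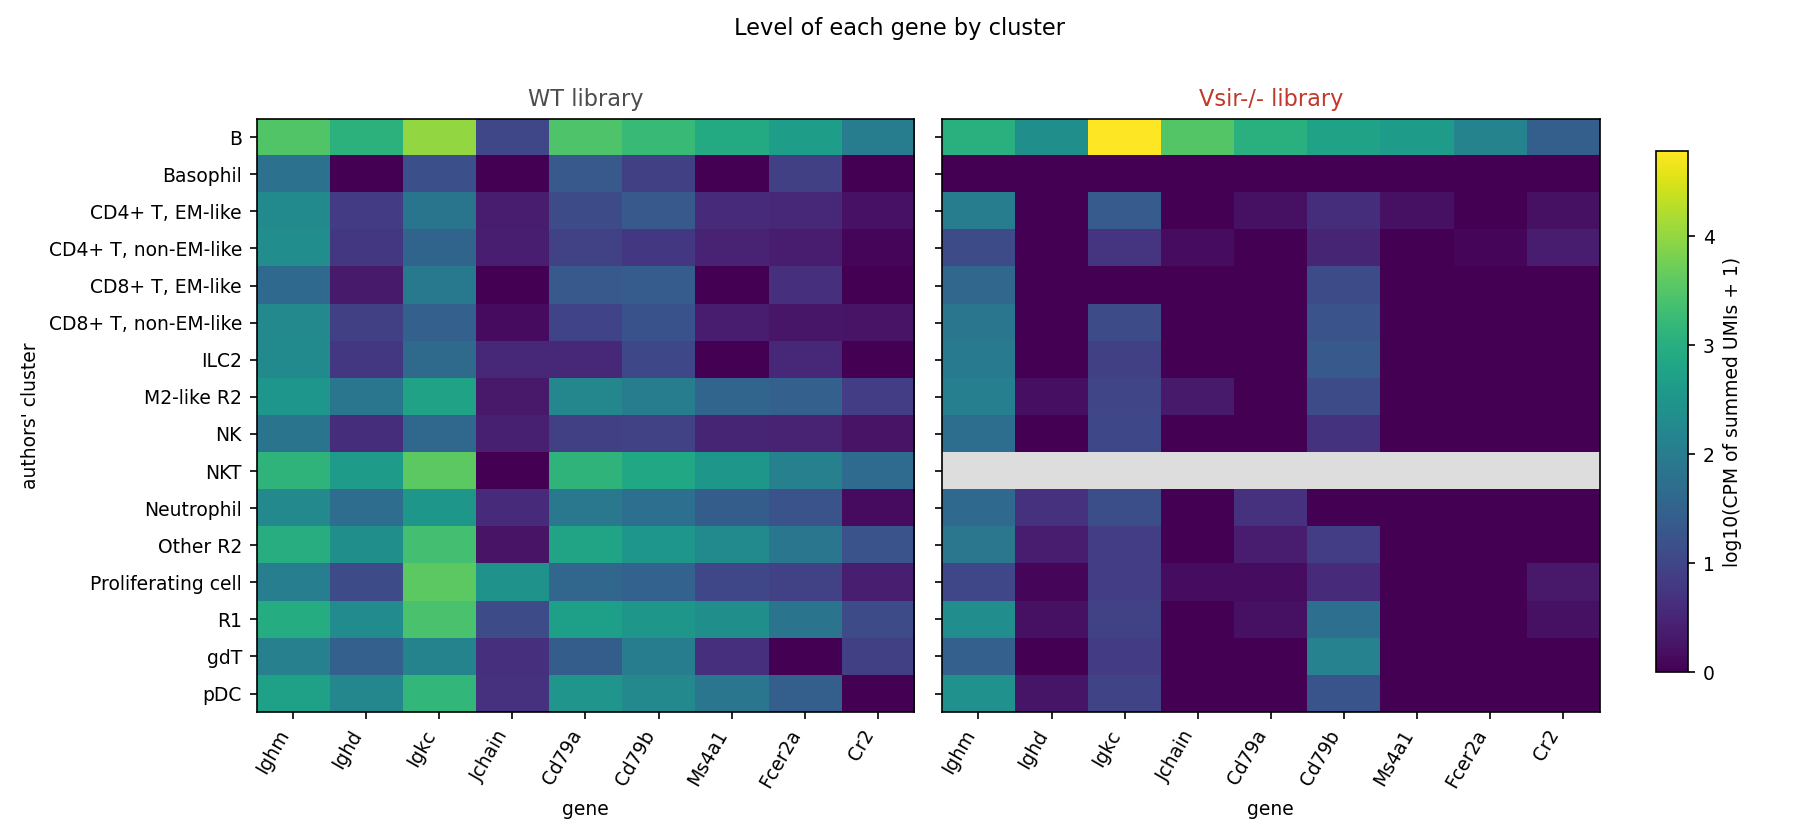
Level of the 9 genes in each of the authors' clusters, as log10(CPM + 1), in the WT library (left) and the Vsir-/- library (right), with grey for the NKT cluster, which held no Vsir-/- cells. The B row is the brightest in both panels for every gene except Jchain in the WT library, where the proliferating cell cluster reached 285.5 CPM, and outside the B row the WT panel is brighter than the Vsir-/- panel in most columns.

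Among the antigen receptor chains, Ighm reached 3047 CPM in the WT B cluster and 1085 CPM in the Vsir-/- B cluster. The next cluster was NKT in the WT library (1290 CPM) and plasmacytoid dendritic cells (pDC) in the Vsir-/- library (261 CPM). Ighd was at 1197 and 236 CPM in the 2 B clusters, and at 423 CPM in WT NKT cells. Igkc was the most abundant of the 9 in both B clusters, at 10268 CPM in the WT library and 58896 CPM in the Vsir-/- library. Its next clusters were proliferating cells in the WT library, at 3721 CPM, and EM-like CD4+ T cells in the Vsir-/- library, at 22.8 CPM. The WT proliferating cells did not differ from NKT cells (3690 CPM) beyond their intervals, and 7230 of their 7481 Igkc UMIs were in 1 cell. Without it they were at 127 CPM.

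The receptor subunits had 2942 CPM (Cd79a) and 1625 CPM (Cd79b) in the WT B cluster, and 1077 and 562 CPM in the Vsir-/- B cluster. The surface molecules followed, with Ms4a1 at 834 and 412 CPM, Fcer2a at 456 and 133 CPM, and Cr2 at 99.4 and 26.7 CPM in the WT and Vsir-/- B clusters. The order Igkc, Ighm, Cd79a, Cd79b was therefore the same in both B clusters, but the intervals of Ighm and Cd79a overlapped in each. Jchain came last in the WT B cluster, at 9.19 CPM, and second in the Vsir-/- B cluster, at 3164 CPM. The B cluster held 58.8% of all Ighm UMIs of the WT library and 30.6% of those of the Vsir-/- library. For Cd79a the shares were 77.5% and 98.6%, for Ms4a1 77.6% and 99.5%, and for Cd79b 74.6% and 60.1%. Ighm and Cd79b were thus the members with the largest portion of their Vsir-/- UMIs outside the B cluster, together with Cr2 (51.9% inside), which rested on 27 UMIs in all.

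The content of the B cluster was checked with 10 B cell genes that are no members, among them Cd22, Pax5, Ebf1, Bank1, Blk, Ly6d, Fcmr, Fcrla and Pou2af1. The cluster held 969 WT cells and 88 Vsir-/- cells. Of the WT cells, 938 had UMIs of at least 4 of these genes and 0 had none. Of the Vsir-/- cells, 40 had at least 4, and 40 others had none. These 40 Vsir-/- cells without any had a median of 1103.5 UMIs, and 16 of them had fewer than 1000. Ptprc, which encodes CD45, was found in 14 of them, and tubule transcripts counted in both libraries were at 4163 CPM. Of the defining B cell markers that did not serve to choose these 40 cells, Ms4a1 had 0 UMIs and Cd79a 1 UMI in them. In the WT B cluster, Ms4a1 was found in 840 and Cd79a in 966 of the 969 cells. The B name of these 40 cells is therefore not borne out by these markers.

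**Figure D2:**
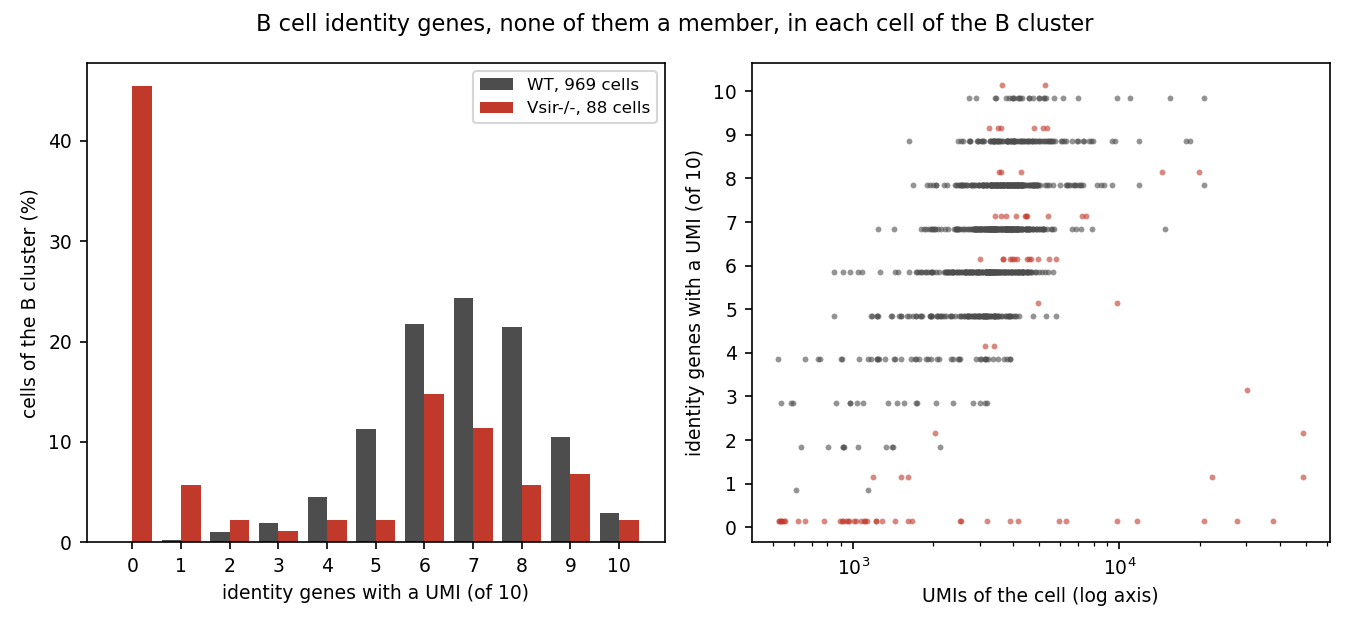
Cells of the B cluster by how many of 10 B cell identity genes had a UMI (left, percent of the 969 WT or 88 Vsir-/- cells) and the same number against the UMIs of the cell (right, 1 point per cell, log axis). WT cells form a single hump around 7 genes, whereas the Vsir-/- cells split into 40 cells at 0 and a hump at 4 or more.

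For this reason, each comparison of genotypes was made over all cells of the B cluster, without cells of 10 or more Jchain UMIs, and over cells with at least 4 identity genes and fewer than 10 Jchain UMIs. The last set, called B cells with identity genes here, was set after seeing the data. It held 937 WT cells with 3419821 UMIs (median, 3457) and 40 Vsir-/- cells with 205795 UMIs (median, 4339). Even in this set, tubule transcripts counted in both libraries were at 12.6 CPM in WT cells and 2639 CPM in Vsir-/- cells, where 97.5% of cells had such a UMI. Their part in the values of the members was not tested.

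Over all cells of the B cluster, Ighd was 5.04-fold, Ighm 2.81-fold, Cd79b 2.89-fold, Cd79a 2.73-fold, Ms4a1 2.02-fold, Fcer2a 3.40-fold and Cr2 3.60-fold lower in the Vsir-/- library. Igkc was higher there by 2.52 and Jchain by 8.41 on the log2 scale. Hence 2 members lay above and 7 below a 2-fold difference. Of the 9094 genes that reached 20 UMIs there, 16.3% lay above and 15.9% below. These figures moved together with the cells that were counted. Without the cells of 10 or more Jchain UMIs, Igkc was 2.28-fold lower in the Vsir-/- library (log2 ratio, -1.19), and 1 member lay above and 7 below 2-fold, against 17.5% and 13.4% of 9034 genes.

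Among B cells with identity genes, most of these differences were small. Igkc was at 10098 CPM in WT cells and 9393 CPM in Vsir-/- cells, a log2 ratio of -0.10 (interval, -0.17 to -0.04). Ighm was at 3064 and 2580 CPM, a log2 ratio of -0.25 (-0.38 to -0.12). For Cd79a the log2 ratio was -0.15, for Cd79b -0.28 and for Fcer2a -0.42, all with intervals that lay under 0. Cr2 was at 100.3 and 68.0 CPM, and the interval of its log2 ratio (-1.45 to 0.21) held 0.

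Ms4a1 went the other way among these cells, at 836 CPM in WT cells and 1040 CPM in Vsir-/- cells (log2 ratio, 0.32, interval 0.11 to 0.52). Jchain was higher by 3.10 on the log2 scale, but its 8 UMIs in the Vsir-/- set came from 1 cell. That cell held 19822 of the 205795 UMIs of the set. It held 36 of the 214 Ms4a1, 75 of the 545 Cd79a and 314 of the 1933 Igkc UMIs, and 0 Ighm UMIs. Ratios of this set without that cell were not computed, so the small differences of these genes may rest in part on it. Ighd had the lowest ratio of the 9, with 1207 CPM in WT cells and 603 CPM in Vsir-/- cells (log2 ratio, -0.996, interval -1.27 to -0.74). It stood just inside the 2-fold limit, so that 1 member lay above and 0 lay below 2-fold, against 11.0% and 13.1% of 8547 genes. Over the 9 members, 6 intervals lay under 0, 2 lay above 0 and 1 held 0. How many of all genes had intervals apart from 0 was not counted, so this count has no background.

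**Figure D3:**
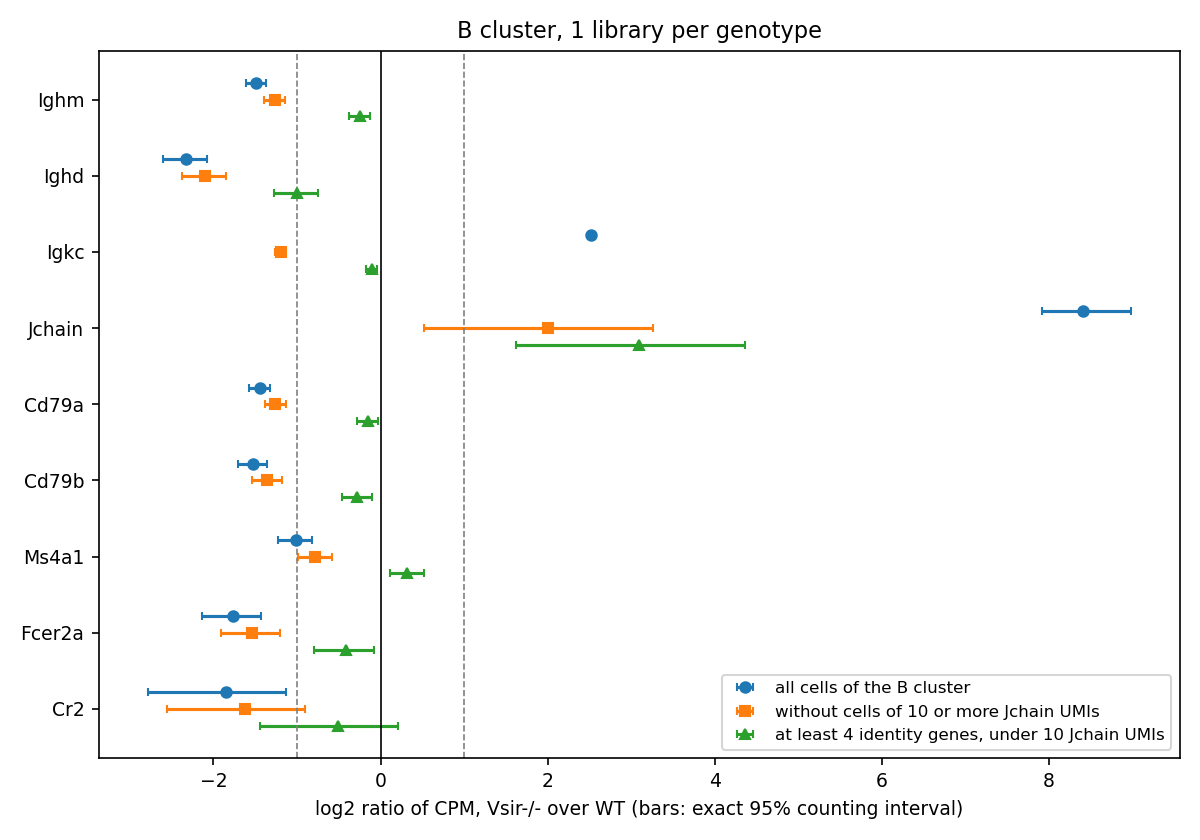
Log2 ratio of CPM, Vsir-/- over WT, for the 9 genes in 3 sets of B cluster cells, with exact 95% counting intervals, a solid line at 0 and dashed lines at 2-fold. From all cells (circles) to B cells with identity genes (triangles), all 9 ratios come closer to 0, including Igkc from 2.52 to -0.10, and Ighd remains the lowest at -0.996.

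The joint pattern of IgM and IgD transcripts is a marker of B cell maturity. Both Ighm and Ighd were found in 92.7% of the 937 WT cells and in 80.0% of the 40 Vsir-/- cells (interval, 64.4 to 90.9%). Ighm without Ighd was found in 6.08% and 17.5% (interval, 7.34 to 32.8%). In neutrophils with fewer than 4 identity genes, which should lack these transcripts, Ighm was found in 20.2% of WT cells (median, 3500.5 UMIs) and 14.6% of Vsir-/- cells (median, 4097 UMIs), and Ighd in 1.58% and 1.90%.

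At an equal depth of 1000 UMIs per cell, Ighd remained in 67.9% of WT and 45.0% of Vsir-/- B cells with identity genes (interval, 29.3 to 61.5%). Cd79b was in 80.6% of the WT cells and 24 of the 40 Vsir-/- cells (interval, 43.3 to 75.1%). For both genes the WT share lay above the Vsir-/- interval. Shares at this depth were not compared over all genes. The shares of Ighm (92.6% and 97.5%), Igkc (95.6% and 38 of 40), Cd79a (94.7% and 92.5%), Ms4a1 (53.1% and 55.0%) and Cr2 (8.85% and 12.5%) lay within the Vsir-/- intervals. That of Fcer2a (34.1% and 47.5%) did so as well. In neutrophils at the same depth, no member other than Ighm (6.60% and 3.27%) and Igkc (5.57% and 1.96%) exceeded 1%.

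CD23 and CD21 divide mature B cells further, since follicular B cells carry CD23 and marginal zone B cells carry much CD21 and little CD23. Before thinning, Fcer2a was found without Cr2 in 52.5% of WT B cells with identity genes and 20 of the 40 Vsir-/- cells. Both were found in 18.5% and 10 of 40, Cr2 alone in 6.08% and 2 of 40, and neither in 22.9% and 8 of 40. Cr2 was sparse, with 343 UMIs in 937 WT cells and 14 in 40 Vsir-/- cells, so that cells without a Cr2 UMI may still have expressed it.

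Ighd varied with Fcer2a among the few Vsir-/- cells, although cells without an Fcer2a UMI may still have expressed Fcer2a. Ighd was found in 94.0% of WT cells with Fcer2a and 91.2% without it. In the Vsir-/- library it was found in 28 of 30 cells with Fcer2a and in 4 of 10 without it (40.0%, interval 12.2 to 73.8%). As a level, Ighd was at 1255 CPM with and 1077 CPM without Fcer2a in WT cells, and at 783 and 179 CPM in Vsir-/- cells. Plac8, which is high in marginal zone and B1 cells, was at 438 and 679 CPM in WT cells and at 277 and 863 CPM in Vsir-/- cells. Of the 13 genes of the marginal zone and B1 list, 12 were detected in these WT cells and 10 of them were higher without Fcer2a. In these Vsir-/- cells 9 were detected and 5 of them were higher without it. The same was not counted over all genes, so these counts have no background. The WT intervals were apart for 5, Plac8, Cd9, Bhlhe41, Fcrl5 and Itgb1. Most WT UMIs of Plac8, Cd9 and Itgb1 lay outside the B cluster (39353, 3818 and 5294, against 1773, 31 and 85 inside it). Those of Bhlhe41 (56 against 78) and Fcrl5 (18 against 26) did not. The part of other cells in these values was not tested. Notch2 (178 and 181 CPM) and Cr2, at 104 CPM with and 90.4 CPM without Fcer2a, had intervals that overlapped. In Vsir-/- cells the intervals were apart for Plac8 alone, and the values without Fcer2a rest on 10 cells.

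A B cell displays kappa or lambda light chains, and most mouse B cells use kappa. Cells with at least 10 light chain UMIs numbered 927 in the WT library and 40 in the Vsir-/- library. Igkc made up a median of 82.5% of the light chain constant UMIs of a WT cell (quartiles, 72.5 and 89.1%) and 85.5% of those of a Vsir-/- cell (quartiles, 77.7 and 92.2%). Cells in which it made up at least 90% were 21.4% of those of the WT library and 32.5% of those of the Vsir-/- library, and cells with at most 10% were 4.64% and 5.0%. The majority, 74.0% of WT cells and 62.5% of Vsir-/- cells, lay between. The lambda constant genes Iglc2 and Iglc3 are nearly identical in sequence, so reads could be split between them and their single values are uncertain. Iglc2 had 1414 CPM in WT cells and 1025 CPM in Vsir-/- cells, the highest of the lambda genes in both.

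**Figure D4:**
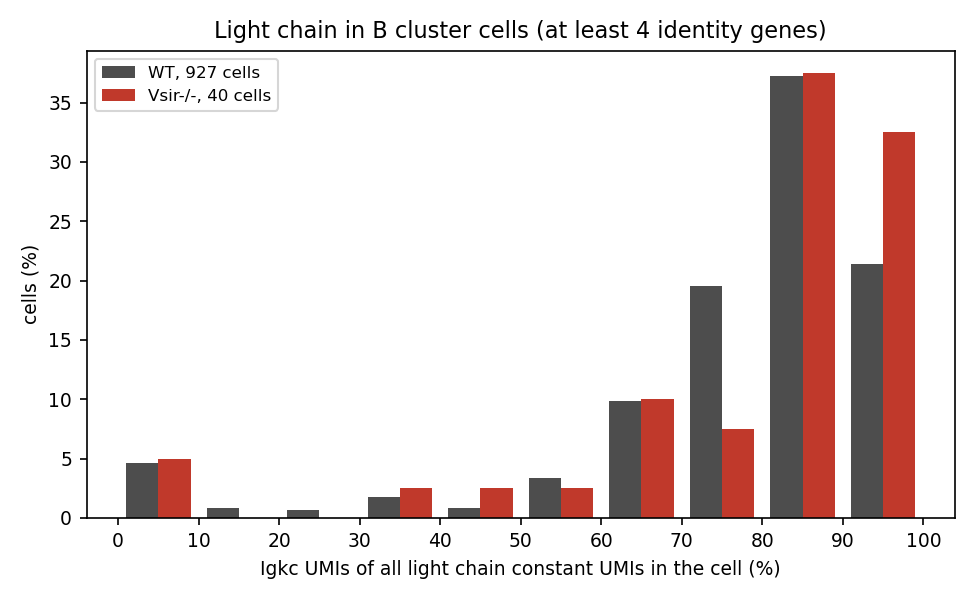
Share of Igkc among all light chain constant UMIs of a cell, for B cells with identity genes and at least 10 light chain UMIs (927 WT and 40 Vsir-/- cells), in bins of 10%. Most cells of both libraries lie above 70%, with a small separate group of 4.64% of WT and 5.0% of Vsir-/- cells at 10% or less.

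Among the switched heavy chain genes counted in each library, transcripts were rare in these cells. Ighg2c was listed at 0 in the WT library, and Igha and Ighg3 in the Vsir-/- library. The shares of the libraries therefore cover different genes. At least 3 UMIs of Igha or an Ighg gene were found in 11 of 937 WT cells (1.17%, interval 0.587 to 2.09%), 8 of which had no Ighm UMI. In the Vsir-/- library 1 of 40 cells had them (2.5%, interval 0.0633 to 13.2%). That cell held 57 of the 58 Ighg1 UMIs of its set, together with 8 Jchain UMIs and 36 Ms4a1 UMIs. Ighg2b had 110 UMIs in the WT set, 73 of them in 1 cell, and 0 in the Vsir-/- set. Igha had 106 UMIs in the WT set and was listed at 0 in the Vsir-/- library.

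Jchain was carried by very few cells. At least 10 Jchain UMIs were found in 2 WT cells, 1 in the B cluster and 1 in the proliferating cell cluster, and in 2 Vsir-/- cells, both in the B cluster. The first Vsir-/- cell held 30042 UMIs, of which 7933 were Igkc, 3529 Ighg2c and 1210 Jchain, and immunoglobulin made up 38.3% of its UMIs. The second held 48715 UMIs, with 20986 of Igkc, 5347 of Ighg1 and 442 of Jchain, and immunoglobulin made up 54.2%. Each carried a different switched heavy chain, with 99.4% of the Ighg2c UMIs of the library in the first and 98.3% of the Ighg1 UMIs in the second. Ms4a1, Fcer2a, Cr2 and Ighd had 0 UMIs in both cells, and Ighm had 1 UMI in the first and 0 in the second. Some genes of antibody secretion were present, with 128 and 63 UMIs of Mzb1, a chaperone of the endoplasmic reticulum. Xbp1, the transcription factor of the secretory programme, had 22 and 91, and Derl3 had 16 and 17. Other genes of that list were at or near 0 UMIs, with 3 and 4 of Sdc1, 1 and 1 of Prdm1, 2 and 0 of Tnfrsf17 and 0 of Irf4 in both.

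These 2 cells accounted for 93.6% of the Igkc UMIs and 99.5% of the Jchain UMIs of the Vsir-/- B cluster, and for 15.0% of all its UMIs. They thus set the high Igkc and Jchain ratios over all cells of the cluster. The WT library held a cell of the same kind, which the authors placed among proliferating cells. It had 27568 UMIs, with 7230 of Igkc, 3367 of Ighg1, 574 of Jchain, 149 of Mzb1 and 13 of Mki67, a gene of dividing cells, and 0 UMIs of Ighm, Ighd, Ms4a1, Fcer2a and Cr2. Sdc1 had 4, Prdm1 1, Tnfrsf17 1 and Irf4 0 UMIs in it. This cell held 88.4% of all Jchain UMIs and 13.4% of all Igkc UMIs of the WT library. Its most frequent variable segments were Igkv14-111, with 26 UMIs, and Ighv3-6, with 25. The other WT cell was unlike these 3. It had 16 Jchain, 71 Igha, 623 Igkc, 43 Cd79a and 17 Ms4a1 UMIs. With 1 WT cell and 2 Vsir-/- cells of the first kind, no share of them was compared.

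Other genes of the B lineage were read from fixed lists in the same way. Of 17 B cell identity genes, 14 lay more than 2-fold lower and 0 higher in the Vsir-/- library over all cells of the B cluster (median log2 ratio, -1.54), against 15.9% lower and 16.3% higher over all genes. Among B cells with identity genes, none did in either direction (median, -0.42, and 0.04 over all genes). Ebf1, which encodes a transcription factor of B cell commitment, had a log2 ratio of -0.75 and Fcmr, which encodes the IgM Fc receptor, one of -0.90, whereas Ly6d was at -0.01. Since 10 of these genes served to choose the cells, their values describe the choice.

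Of 18 genes of B cell receptor signalling, 2 lay above and 2 below 2-fold among B cells with identity genes (median, -0.21), a share near that of all genes there (11.0% above and 13.1% below). Ifitm3, an interferon-induced membrane protein, had 123 UMIs in WT cells and 41 in Vsir-/- cells (log2 ratio, 2.48), and Pik3ap1, an adaptor of a lipid kinase, had 47 and 24 (3.10). Macrophage markers were at 9.65 CPM in the WT and 68.0 CPM in the Vsir-/- cells of these sets, and their part in these values was not tested. Syk, the kinase next to CD79A and CD79B, was at -0.25 with an interval that held 0, as were Ptpn6 (-0.19) and Malt1 (0.25). Of 10 follicular genes, 0 lay above and 1 below 2-fold (median, -0.07). This was Bach2, a repressor of plasma cell fate, at 220 CPM in WT and 77.7 CPM in Vsir-/- cells (log2 ratio, -1.46, interval -2.32 to -0.79). Klf2, which controls B cell homing, was higher by 0.58 and the chemokine receptor gene Ccr7 was at 0.04.

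Of 9 marginal zone and B1 genes that passed the filter and were counted in both libraries, 2 lay above and 2 below 2-fold (median, -0.15), against 10.8% and 11.5% of 8348 such genes. One of the latter, Zcwpw1, had 27 UMIs in WT and 0 in Vsir-/- cells, too few for a fold. Notch2, the receptor that directs marginal zone fate, was at 179 CPM in WT and 48.6 CPM in Vsir-/- cells (log2 ratio, -1.81, interval -2.95 to -0.99). Cd9 and Itgb1 were higher by 1.98 and 1.31, on 7 and 12 UMIs in Vsir-/- cells, and over all cells of the cluster by 4.07 and 3.11. Among transitional B cell genes, Vpreb3 was at 199 CPM in WT and 214 CPM in Vsir-/- cells (log2 ratio, 0.12, interval -0.37 to 0.55). The other 4 that passed had at most 11 UMIs in the Vsir-/- set, so the median of that list (1.09) rests on few transcripts.

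Of the activated and germinal centre genes, 1 of 10 lay above and 0 below 2-fold (median, 0.35), and this was Fas, a death receptor gene, with 20 UMIs in WT and 5 in Vsir-/- cells. Cd69, an early activation gene that also holds cells in tissue, was lower by 0.56 on the log2 scale (interval, -0.82 to -0.31). Of the genes of antibody-secreting cells, 9 of 15 lay above 2-fold over all cells of the B cluster (median, 1.57), against 16.3% of all genes. Among B cells with identity genes, 1 of 13 did (median, -0.19), against 11.0%, and Mzb1 (-0.08), Sec11c (-0.31) and Hsp90b1 (0.32) all had intervals that held 0.

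Outside the B cluster, each member had a higher level in the WT library, such as Ighm (254 against 71.3 CPM) and Cd79b (65.8 against 10.8 CPM). The B cluster itself held 969 of 5470 WT cells and 88 of 1844 Vsir-/- cells. The part of this difference in the levels outside it was not tested. Summed over the 9 genes, member transcripts reached 1156 CPM in the WT cells outside the B cluster. In that library, 222 of 4501 cells outside the B cluster (4.93%) had at least 4 identity genes, against 0 of 1756 Vsir-/- cells, where 3 counts would be 0.171%. They lay mostly in the M2-like R2 macrophages (62 cells), the other R2 macrophages (48), the NKT cluster (47 of its 94 cells) and the R1 macrophages (25). R1 and R2 are the authors' resident and infiltrating macrophages. The 222 cells had a median of 10459.5 UMIs, against 5202 in the other cells outside the B cluster. Macrophage markers were found in 70.7% of them, against 20.2% of the other cells outside the B cluster, and neutrophil markers in 89.6% against 75.4%. T cell markers (55.4% against 79.0%) and NK cell markers (42.3% against 53.0%) were less frequent in them. These shares were not taken at equal depth. As levels, macrophage markers were at 1100 against 396 CPM, but neutrophil markers were at 13137 against 23821 CPM. T cell markers (696 against 2995 CPM) and NK cell markers (834 against 1773 CPM) were lower in the 222 cells as well. These shares and levels pool clusters of different cell types. Within R1 macrophages, macrophage markers were found in 100% of both kinds of cell. The shares were 96.8% against 82.2% in M2-like R2, 93.8% against 87.1% in other R2 and 19.1% against 76.6% in NKT cells. The level of macrophage markers was lower in the cells with at least 4 identity genes within each of these clusters. It was 8271 against 14404 CPM in R1, 634 against 656 in M2-like R2, 566 against 1077 in other R2 and 26.8 against 1659 in NKT cells.

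These 222 cells held 92.0% of the Cd79a, 93.0% of the Ms4a1, 91.0% of the Igkc and 89.0% of the Ighd UMIs outside the WT B cluster, but 46.9% of the Ighm UMIs. One of them, the cell of the proliferating cluster with 574 Jchain UMIs, held 39.4% of the Igkc UMIs outside the B cluster by itself. Without that cell, the other 221 held 85.1% of the Igkc UMIs, and the sum over the 9 genes outside the B cluster was 890.0 CPM. Without all 222, the sum over the 9 genes was 245 CPM. Of the 13 WT clusters with such cells, they held more than 50% of the cluster's Cd79a UMIs in 10 and of its Ighm UMIs in 6. In non-EM-like CD4+ T cells they held 0.209% of the Ighm UMIs. Whether such droplets held more than 1 cell was not tested.

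In the remaining cells outside the B cluster, Ighm was the most abundant member, at 149 CPM in the WT library and 71.3 CPM in the Vsir-/- library. Igkc was at 62.1 and 8.24 CPM, Cd79b at 14.6 and 10.8 CPM, Cd79a at 8.96 and 0.443 CPM, and Ighd at 5.20 and 0.443 CPM. Ms4a1 (2.22 and 0.0553 CPM), Jchain (1.54 and 0.332), Fcer2a (1.39 and 0.0553) and Cr2 (0.602 and 0.719) were lowest. After thinning, Ighm was found in 13.9% of these WT cells and 7.85% of these Vsir-/- cells, and Igkc in 5.15% and 0.885%.

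The remaining Ighm was not even over the clusters. Of the WT clusters of at least 20 cells, NKT (390 CPM, on 20 UMIs) and R1 macrophages (337 CPM) were highest and did not differ beyond their intervals. The 47 remaining NKT cells had a median of 926 UMIs, and 14, 7 and 2 of them had 1, 2 and 3 identity genes. They were also highest for Igkc (1190.5 CPM), Cd79a (507), Ms4a1 (156) and Ighd (137), so B cell transcripts other than Ighm remained in them. Next came non-EM-like CD4+ T cells (215), ILC2 (191), non-EM-like CD8+ T cells (177), EM-like CD4+ T cells (176.5), M2-like R2 macrophages (168) and other R2 macrophages (155). Gamma delta T cells (92.3), proliferating cells (89.4), neutrophils (73.7), NK cells (65.4), basophils (61.9) and EM-like CD8+ T cells (27.3 CPM) followed. In this order only R1 macrophages and non-EM-like CD4+ T cells were neighbours with separate intervals.

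In the Vsir-/- library pDC (261 CPM) and R1 macrophages (221 CPM) were highest, with intervals that overlapped. They stood apart from M2-like R2 macrophages (116), EM-like CD4+ T cells (103), other R2 macrophages (76.4), non-EM-like CD8+ T cells (74.6) and NK cells (53.3). Neutrophils (42.5), EM-like CD8+ T cells (36.1), gamma delta T cells (28.2), non-EM-like CD4+ T cells (11.3) and proliferating cells (9.45 CPM) were lowest. After thinning, Ighm was found in 31.4% of Vsir-/- pDC (interval, 21.8 to 42.3%) and 16.5% of Vsir-/- R1 macrophages (11.8 to 22.2%), against 3.27% of Vsir-/- neutrophils (1.07 to 7.46%). In WT R1 macrophages the share was 35.7% (25.6 to 46.9%), against 6.60% of WT neutrophils (4.56 to 9.19%). R1 macrophages thus stood above neutrophils of the same library at equal depth in both genotypes.

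**Figure D5:**
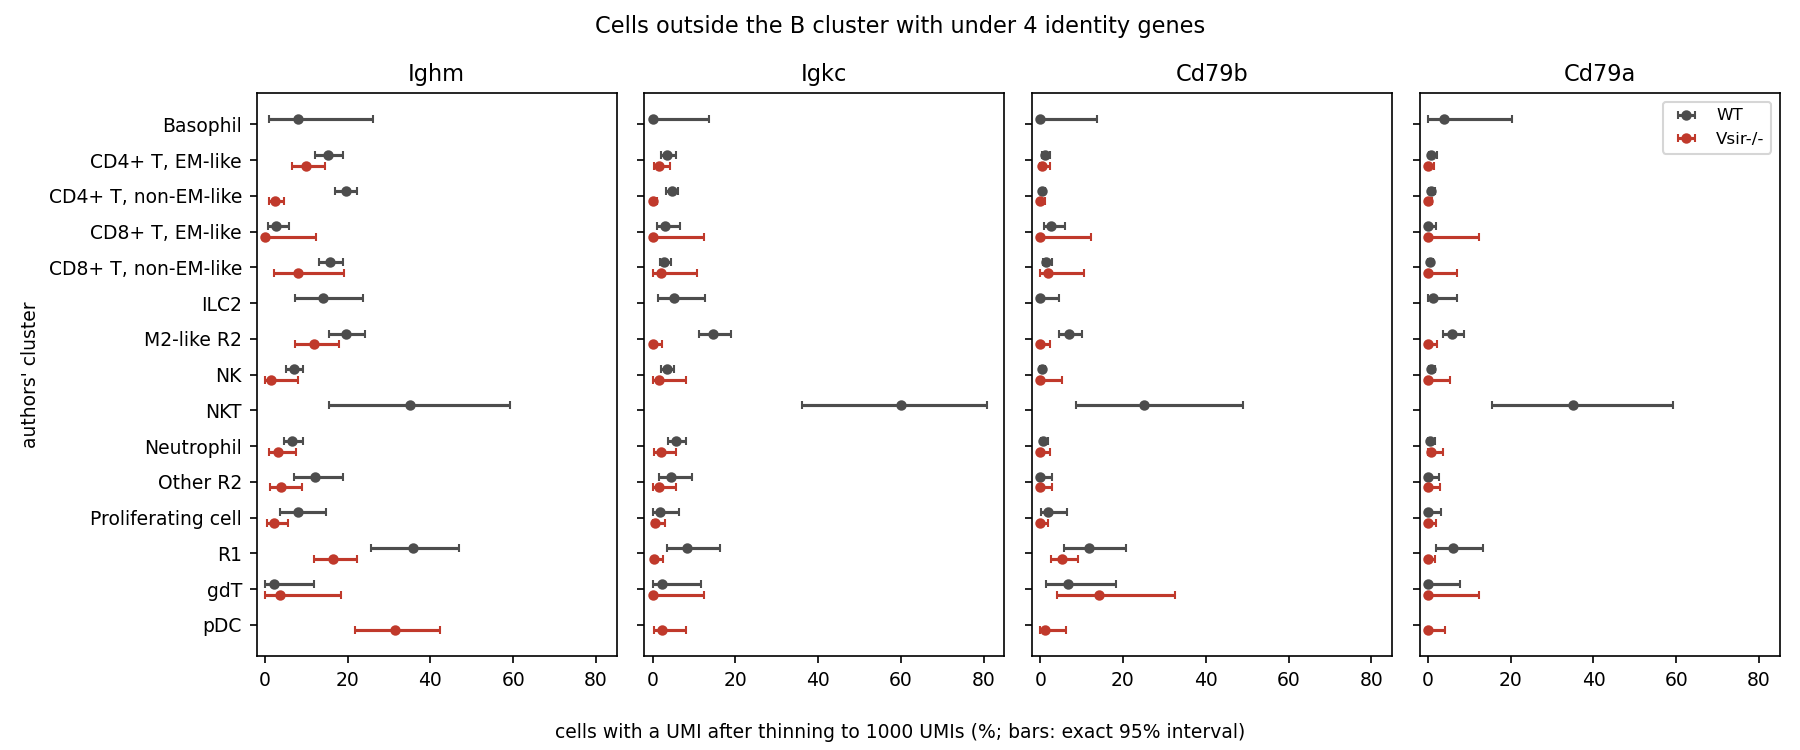
Percent of cells with a UMI of Ighm, Igkc, Cd79b and Cd79a after thinning to 1000 UMIs, in cells outside the B cluster with fewer than 4 identity genes, by cluster, for clusters of at least 20 such cells, with exact 95% intervals. Ighm reaches 31.4% in Vsir-/- pDC and 35.7% in WT R1 macrophages while Igkc there is at 2.33% and 8.33%, and Cd79b reaches 14.3% in Vsir-/- gamma delta T cells with Cd79a at 0.

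Ratios between members were compared inside and outside the B cluster. Igkc per Ighm was 3.31 (interval, 3.24 to 3.38) in the WT B cluster and 3.48 (3.17 to 3.83) in the Vsir-/- B cluster, both without cells of 10 or more Jchain UMIs. In the remaining cells outside the B cluster it was 0.417 (0.394 to 0.442) in the WT library and 0.116 (0.0969 to 0.137) in the Vsir-/- library. Among Vsir-/- clusters with at least 100 Ighm UMIs it was lowest at 0.0339 in Vsir-/- R1 macrophages (12 Igkc and 354 Ighm UMIs) and 0.0324 in Vsir-/- pDC (10 and 309). Ighm, the divisor of this ratio, was highest in these clusters, so the low ratio is no separate observation. Igkc was at 7.49 and 8.45 CPM in them, 8.95 CPM in M2-like R2 macrophages and 22.8 CPM in EM-like CD4+ T cells. WT non-EM-like CD4+ and CD8+ T cells had 0.150 and 0.152. WT R1 macrophages had 3.22, but 411 of their 486 Igkc UMIs came from 1 cell, which also held 60 Igha UMIs.

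Ighd per Ighm showed the same contrast, with 0.393 and 0.218 in the WT and Vsir-/- B clusters and 0.0349 and 0.00621 in the remaining cells outside. Summed over clusters, the Ighm transcripts of the remaining cells were thus accompanied by far fewer Igkc and Ighd transcripts than those inside the B cluster. The remaining WT NKT cells were an exception, with 61 Igkc and 7 Ighd UMIs beside 20 of Ighm. These sums leave out the WT cells with at least 4 identity genes, which held 3495 of the 7446 Ighm UMIs outside that cluster. With them, Igkc per Ighm outside the WT B cluster was 2.46, and 1.49 without the 1 cell of 10 or more Jchain UMIs.

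Cd79b was the other member with its own pattern outside the B cluster. In gamma delta T cells it was at 88.6 CPM in the WT library (24 UMIs, interval 56.8 to 131.8) and 129.8 CPM in the Vsir-/- library (23 UMIs, interval 82.3 to 194.7). Cd79a had 0 UMIs there in both libraries, which allows up to 11.1 and 16.9 CPM. Cd79b was found in 42.2% of these WT cells and 39.3% of these Vsir-/- cells, or in 6.67% and 14.3% after thinning. R1 macrophages had 75.8 and 55.6 CPM of Cd79b in 26.4% and 27.4% of cells, with 44.6 and 0.624 CPM of Cd79a. In neutrophils Cd79b was at 5.70 CPM in the WT library and had 0 UMIs in the Vsir-/- library.

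Cd79b per Cd79a was 0.550 (interval, 0.532 to 0.568) in the WT B cluster and 0.515 (0.444 to 0.595) in the Vsir-/- B cluster. In the remaining cells outside it was 1.63 (1.38 to 1.92) and 24.5 (12.2 to 57.5). Both subunits are needed for the receptor at the surface of a B cell, and the transcripts of the remaining cells did not hold the ratio seen in B cells.

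Over 29 sums of at least 20 cells by cluster and library, genes outside the members with profiles most like Cd79a included Fcmr (Pearson r = 0.983), Iglc2 (0.980), Pax5 (0.975) and Iglc1 (0.971). Among members, Ighd (0.981) and Ms4a1 (0.978) were nearest to Cd79a, while Cd79b (0.905) and Ighm (0.853) were further away. Igkc was most like Mzb1 (0.918), Fcmr (0.915), Iglc1 (0.914), Iglc2 (0.909) and Pou2af1 (0.908). Jchain was most like Ighg1 (0.979), Ighg2c (0.840), Fkbp11 (0.699), Mzb1 (0.638) and Fscn1 (0.583). These values describe log2(CPM + 10) over clusters that share libraries and depth, and Ighg2c was counted in the Vsir-/- library only. The Jchain values rest on 3 cells, which held 574 of 649 WT and 1652 of 1666 Vsir-/- Jchain UMIs and most Ighg1 and Ighg2c UMIs.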

How the data were processed

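Kidney cells of 1 WT and 1 Vsir-/- library with NTN were profiled with the 10× Genomics 3′ chemistry (version 3.1) after digestion in liberase (0.2 mg/ml, 37 °C, 30 minutes). Per the labels, the authors' processing notes name Cell Ranger (version 3.1.0), R (version 4.0.3), Seurat (version 3.2.3) and the mm9 build. The authors kept genes found in 5 or more cells and cells with at least 200 UMIs and at most 10% mitochondrial transcripts, then clustered and named the cells. How doublets were handled is not stated in the sources used here, and none were called.

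The deposited matrix holds UMI counts, which are whole numbers without normalization. Deposited percent values of mitochondrial UMIs served for an alternative limit of 5%. The authors' scores of the cell map (2 coordinates) were not used. Promoter sequences come from a RefSeq table of another build than that of the files, so only sequences were taken from it.

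UMIs were summed per cluster and library. Intervals are exact Poisson, Clopper-Pearson or exact conditional intervals (95%). Log2 ratios carry a pseudocount of 0.5 UMIs. A count of 0 was taken to allow up to 3 counts, and shares were also computed after thinning to 1000 UMIs, which left out 167 WT and 78 Vsir-/- cells. The number of UMIs per cluster sets the precision. Among clusters of at least 20 cells it ran from 145436 in WT basophils to 5060620 in WT non-EM-like CD8+ T cells, with 524622 in the Vsir-/- B cluster. UMIs are not replicates, so no p-value was computed. The alternatives changed the scaling, the denominator, the cells kept, the depth, the weighting, the filter and the threshold.

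Named genes are the 9 members, the 3 most abundant and the 2 most different genes of each list, all immunoglobulin constant genes, the 5 most alike genes of Cd79a, Igkc and Jchain, and markers on which a result turns. Some genes that this rule names are not reported here. Lists of B cell, T cell, NK cell, neutrophil, macrophage, pDC, tubule and red cell markers were used. Vsir, Xist, Ddx3y, the variable segments and the genes named within a few cells were chosen after their values were seen. The members and lists were chosen with earlier results of these data known. The sums were checked on simulated counts for 9115 genes of the B cluster. Log2 differences of 1.5 and -1.5 came back as medians of 1.47 and -1.45, over 50 genes each. Intervals held the true value for 92.0% of genes at a difference of 3 and 100% at -3. The counts were Poisson draws from pooled levels, which the intervals assume. Single cells with most UMIs of a gene and mixed cell content were not simulated, so the check covers the calculation only. Scripts ran in Python (version 3.11.15) on pandas 2.3.3, scipy 1.17.1, numpy 2.4.6 and matplotlib 3.10.9.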

Additional observations from a re-analysis of the deposited data

How the results depend on the processing

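The comparison of the B clusters depended on which cells were counted more than on scaling. Over the members the median log2 ratio of Vsir-/- over WT was -1.49, and it was -0.47 after thinning, -0.69 in cells with an identity gene and under 10 Jchain UMIs, and -0.25 in cells with at least 4 identity genes. The number of members above 2-fold was 2 and became 1 in all 3 sets without cells of 10 or more Jchain UMIs. The number below was 7 and became 1 with an identity gene and 0 with at least 4. Of all genes, 15.9% lay below 2-fold over all cells and 13.1% with at least 4. The share of all genes was not counted in cells with an identity gene, so the counts of that set have no background. Igkc changed sign, to -1.19, -0.54 and -0.10 in these 3 sets, and Ms4a1 to 0.32 in the last. With an identity gene and with at least 4, the list medians moved to -0.82 and -0.42 (identity, from -1.54), -0.28 and -0.21 (receptor signalling, from -0.88), 1.13 and 1.09 (transitional, from 0.25) and -0.41 and -0.072 (follicular, from -1.08). The median of antibody-secreting cell genes, 1.57, was -0.29 without cells of 10 or more Jchain UMIs, -0.027 with an identity gene and -0.19 with at least 4. These sets were chosen after seeing the data, and fewer cells enter them by construction.

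Outside the WT B cluster the summed level of the members was 1156 CPM. It was 231 CPM without cells of 2 or more identity genes and 245 CPM without cells of 4 or more. In all WT neutrophils it was 749 CPM, but 18 of them, with 4 or more identity genes, held 91.0% of the cluster's Igkc UMIs. The median share of cells with a UMI outside the B cluster, 7.33% in WT and 0.456% in Vsir-/- cells, was 3.01% in WT cells without those of 4 or more identity genes, and 2.57% and 0.0590% after thinning. Igkc per Ighm outside the WT B cluster, 2.46, was 1.49 without the 1 cell of 10 or more Jchain UMIs there, and 0.365 and 0.417 without cells of 2 or more and of 4 or more identity genes, which include that cell. WT cells with many Jchain UMIs numbered 2 at 10 UMIs, 4 at 5 and 1 at 20. The cause of these shifts was not tested beyond the choice of cells.

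Of 548 alternatives, 340 left a value within 1.5-fold or its interval. No library could be left out, since each genotype had 1, and the 88 Vsir-/- cells limit every ratio. No paired analysis was possible because each genotype had 1 library and no result came from a test.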

Other observations

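Variable segments were counted in the WT library only, where 54 were listed. The WT cell with 574 Jchain UMIs held 64 variable segment UMIs in all. The WT B cluster cell with 16 Jchain UMIs held 6 UMIs of Igkv17-127, and the R1 macrophage cluster cell with 411 Igkc and 60 Igha UMIs held 2 of Ighv1-59, no Mzb1 and 99 UMIs of the macrophage markers. Gene symbols also differed between the feature lists of the libraries. Aes had 13241 UMIs in the WT library and 0 in the Vsir-/- library, whereas Tle5, a newer symbol of the same gene, had 0 and 7784. Usmg5 had 7338 and 0 UMIs and its newer symbol Atp5md 0 and 8612. The members kept 1 symbol in both libraries.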
